A study of Mus musculus with 39 samples.

Results

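The RNAs described here encode core components of the spliceosome, the machine in the nucleus that removes introns from pre-mRNA. The rule that picks them reads gene symbols and no measured value: every symbol that starts with Snrp, with Lsm, Prpf, Sf3a or Sf3b followed by a digit, or with U2af, and in addition Snw1, Cdc5l, Crnkl1, Eftud2, Aqr and Cwc15. This gave 56 genes of the 13230 that were present in the tables of both gradients. The names do not catch every core component, and genes such as Snrnp70 are counted further down among the other genes of the pathway.

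Liver of wild type FVB female mice was homogenised with beads, without detergent, and the homogenate was cleared of nuclei and spun into a 10 to 50% sucrose gradient, a method called ATLAS-Seq. RNA of single fractions was sequenced after depletion of ribosomal RNA, from 2 replicate gradients, with 17 libraries in gradient 1 (fractions 4 to 19 and 21) and 22 in gradient 2 (fractions 3 to 24). All libraries share the strain, sex, tissue and genotype, with no treatment, and differ only in the fraction and the gradient; the age of the mice is not given in the sources used here. The description that follows asks in which part of the gradient each RNA lay and whether RNAs whose proteins work in the same complex lay together.

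The spliceosome is built from small nuclear ribonucleoproteins (snRNPs), each a small nuclear RNA (snRNA) wrapped in a ring of Sm or Sm-like (LSm) proteins and carrying proteins of its own, together with many factors that join for single steps. All of these proteins are made in the cytoplasm from ordinary mRNAs, and the Sm ring is put on the snRNA in the cytoplasm before the particle returns to the nucleus. In a sucrose gradient without detergent, free RNA and small particles stay in the light upper fractions, and ribosomal subunits, polysomes and membranes with their bound RNA are found in denser ones.

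Levels are in TPM, the number of transcripts of a gene scaled to a fixed library total and corrected for transcript length, so that levels of different genes in a library can be set side by side. TPM of each library sum to nearly the same total (998099 to 999202), so a value is a share of the RNA in that fraction, not an amount, and the number of reads behind it is unknown. For comparisons the fractions were put into 3 zones of 4 fractions: light (4 to 7), middle (10 to 13) and dense (16 to 19). In each gradient the 4 values of log2(TPM + 1) of a zone were averaged, and the zone means of the 2 gradients (n = 2 per zone) were compared with limma across the 11754 genes whose mean TPM reached 1. A change is given on this log2 scale, which understates changes of low genes, with its standard error, and "called" stands for a Benjamini-Hochberg adjusted p under 0.05. All 56 members passed this filter, and for 49 the mean TPM reached 10.

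The tissue matched its label, since the summed TPM of 6 hepatocyte markers had a median of 36765 in the light, 20832 in the middle and 21462 in the dense zone. Markers of other cells of the liver were far lower, with medians over the zones of 60.0 to 159 for 5 Kupffer cell markers, 22.6 to 48.4 for 4 sinusoidal endothelial, 15.1 to 43.5 for 4 stellate and 3.51 to 4.34 for 3 of 4 cholangiocyte markers, and of 138 to 500 for 3 of 5 erythroid markers; no marker in the tables was at 0 throughout. The nuclear-retained RNAs Malat1 and Neat1 summed to 172 to 773 TPM in the light, 26.2 to 67.0 in the middle and 14.5 to 28.2 in the dense zone. The share of these RNAs was thus highest in the light zone. Their part in the changes below was not tested.

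Most RNAs for core spliceosome proteins took a larger share of the RNA in denser fractions. Together the 56 RNAs made up a mean of 1568 TPM in the light zone, 3842 in the middle and 3769 in the dense zone of gradient 1, and 1558, 3596 and 3036 TPM in gradient 2. Between the light and dense zones 34 members rose, 7 fell and 15 were not called, beside 22.3% of all genes tested that rose and 39.6% that fell (61.9% called either way). The median change of the members was 0.95 (1.18 in gradient 1 and 0.81 in gradient 2), and that of all genes was -0.43; all 56 members changed in the same direction in both gradients. The 8 dense libraries were all above the 8 light libraries for 30 members, against 16.9% of all genes, and all below for 4, against 28.9%. Quantile normalization moved the median of all genes to -0.05 and that of the members to 1.15, so the distance between them was 1.38 log2 units with TPM as deposited and 1.20 after quantile normalization. Of the 41 calls, 27 (24 higher, 3 lower) stayed when any 1 of the 6 zone means was left out, and the other 14 had adjusted p between 0.0513 and 0.168 where they were lost. With zones of 3 in place of 4 fractions Lsm4, Lsm7, Lsm14a and U2af1l4 were no longer called (adjusted p 0.223, 0.0587, 0.0688 and 0.0747).

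**Figure D1:**
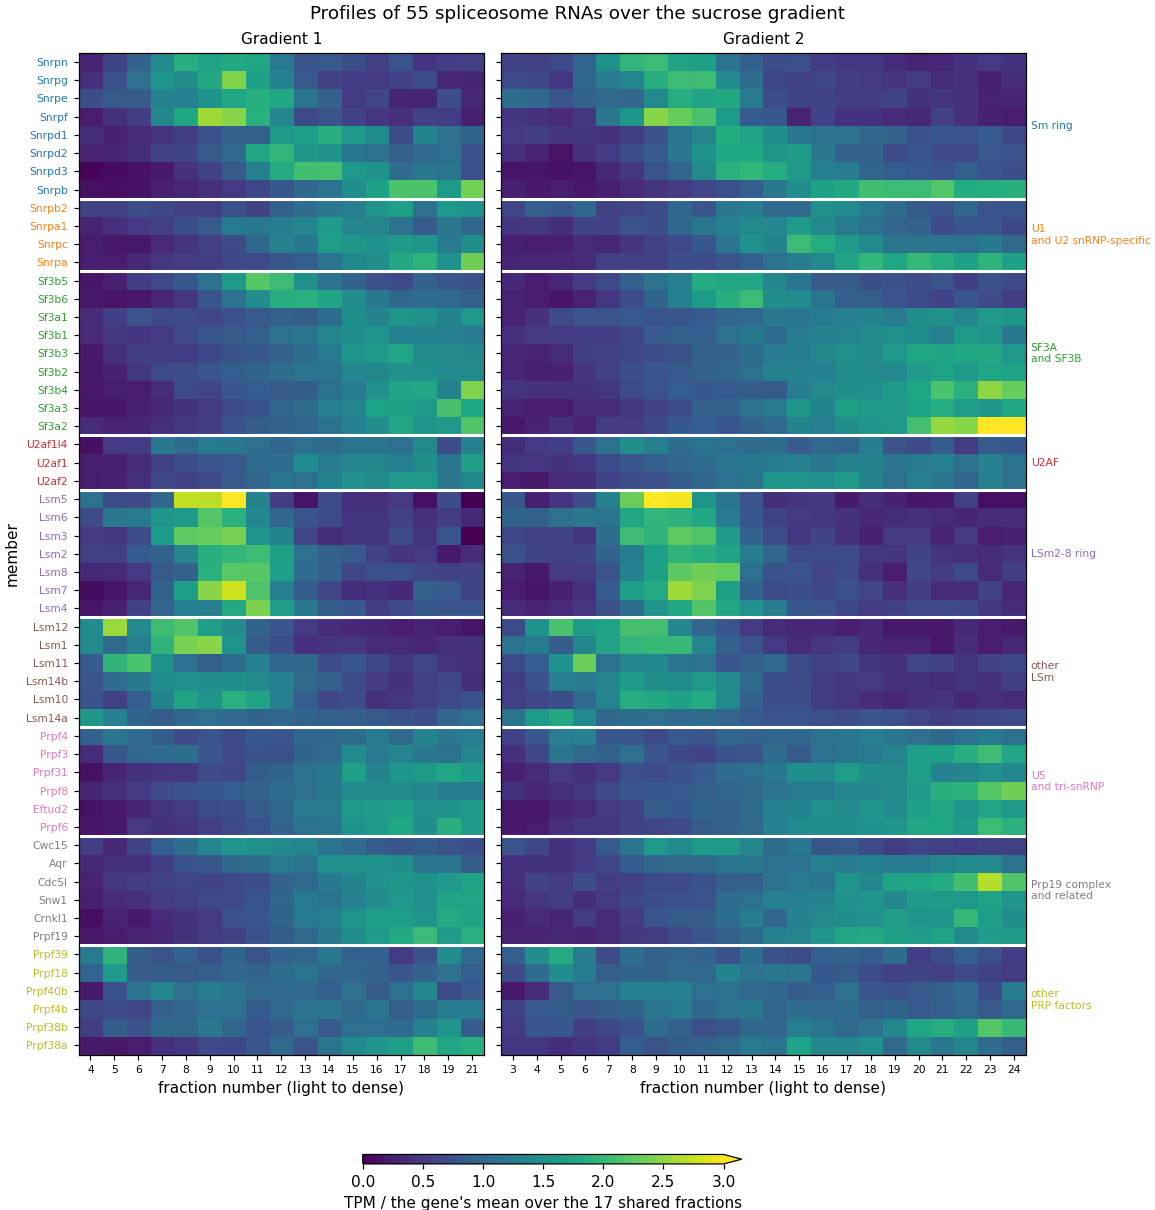
Profiles of 55 of the 56 members in gradient 1 (left, 17 fractions) and gradient 2 (right, 22 fractions). Colour gives TPM divided by the gene's mean over the 17 shared fractions, and rows are grouped by role and ordered within a role by the centre of sedimentation in gradient 2. The LSm2-8 ring and part of the Sm ring peak in fractions 8 to 11, 3 of the 6 other LSm RNAs (Lsm12, Lsm14a and Lsm11) peak in fractions 4 to 6, and most SF3A, SF3B, U5 and Prp19 complex RNAs are highest in fractions 16 to 24.

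The position of the peak divided the members along lines that followed their complexes in part. In gradient 1, 5 members had their highest TPM in fractions up to 7, 16 in fractions 8 to 11, 7 in fractions 12 to 15 and 28 in fraction 16 or beyond, and in gradient 2 these numbers were 6, 18, 9 and 23. Over the shared fractions the peak was the same fraction in both gradients for 21 members and lay within 2 fractions for 41. The centre of sedimentation, the mean fraction number weighted by TPM over the 17 shared fractions, had a median of 13.1 in gradient 1 and 13.0 in gradient 2 for the members, and 11.3 in both for all genes. The lowest centre was that of Lsm12 (8.69 and 8.81) and the highest that of Snrpb (15.7 and 15.5). Profiles were alike between the gradients, with a median Pearson's R over the 17 fractions of 0.943, and an R over 0.9 for 39 members (69.6%) and for 49.8% of all genes; neighbouring fractions are not independent, so these values have no p.

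From light to dense the RNAs of the Sm ring changed in both directions. The ring is made of the proteins encoded by Snrpb, Snrpd1, Snrpd2, Snrpd3, Snrpe, Snrpf and Snrpg, and Snrpn encodes a protein closely similar to that of Snrpb that is known best from brain. From light to dense 4 of the 8 RNAs rose (Snrpb, Snrpd3, Snrpd2 and Snrpd1), 2 fell (Snrpe and Snrpg) and 2 were not called (Snrpf and Snrpn), beside 22.3% of all genes that rose and 39.6% that fell. The changes ran from -0.83 for Snrpe to 3.31 for Snrpb. From light to middle all 8 changed upward and 7 were called higher, beside 23.5% of all genes, with a median change of 1.55; Snrpn was not called, and the call of Snrpe was lost without any 1 of the 4 light and middle means (adjusted p 0.0892 to 0.207), after quantile normalization (adjusted p = 0.174) and without the 50 most abundant genes (adjusted p = 0.106). With zones of 3 fractions the calls of Snrpe and Snrpg were lost (adjusted p 0.0776 and 0.0825). The genes of the ring lie apart from each other in the genome, with Snrpb at chr2:130171414-130179403 (minus strand), Snrpd3 at chr10:75517551-75537381 (plus strand) and Snrpe at chr1:133603871-133610291 (minus strand) of GRCm38, the assembly also called mm10.

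Snrpb, which encodes the B proteins of the ring, had the largest rise of any member. Its TPM in the 8 light libraries was 31.8 to 66.2 (median 36.6), in the 8 middle libraries 95.1 to 249 (median 146) and in the 8 dense libraries 314 to 532 (median 391). The 3 zones did not overlap, and the level climbed through nearly the whole gradient, from 32.2 TPM in fraction 4 to 585 in fraction 21 of gradient 1 and from 48.4 in fraction 3 to 400 in fraction 21 of gradient 2. Its change from light to dense was 3.31 ± 0.24 (SE, adjusted p = 3.35e-04; 3.53 in gradient 1 and 3.10 in gradient 2). In gradient 2 it stayed high to the last fraction, with 344 TPM in fraction 24.

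Snrpd3, with the highest mean TPM of the ring in both gradients (256 and 212), rose almost as far but turned down again. Its TPM was 14.3 to 69.8 (median 35.3) in the light libraries, 209 to 535 (median 366) in the middle and 191 to 393 (median 275) in the dense ones. Light libraries were all below the others, while middle and dense libraries overlapped. The change was 2.95 ± 0.23 from light to dense (adjusted p = 3.87e-04) and 3.29 ± 0.23 from light to middle (adjusted p = 0.00110), the latter the largest of any member. Its peak lay at fraction 14 of gradient 1 (538 TPM) and fraction 13 of gradient 2 (421 TPM).

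Snrpd2 and Snrpd1, whose proteins bind each other before they enter the ring, had peaks beside that of Snrpd3. Snrpd2 rose by 1.46 ± 0.18 (adjusted p = 0.00122) and peaked at fractions 12 and 13 with 421 and 364 TPM. Snrpd1 rose by 1.33 ± 0.22 (adjusted p = 0.00350) with peaks at fractions 14 and 12 of only 67.3 and 69.7 TPM. The profiles of the pair correlated with R = 0.821 in gradient 1 and 0.937 in gradient 2 (17 fractions).

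Snrpe, Snrpf and Snrpg, which form the other side of the ring, peaked earlier, in fractions 9 to 11 of both gradients. Snrpg had 59.7 to 235 TPM (median 133) in the light, 125 to 361 (median 241) in the middle and 50.9 to 105 (median 82.1) in the dense libraries, and the dense libraries were all below the middle ones and overlapped the light ones. Its change from light to dense was -0.64 ± 0.15 (adjusted p = 0.0137), a fall of 0.21 beyond the median of all genes. Snrpe had 72.8 to 132 TPM (median 107) in the light and 31.2 to 75.7 (median 66.2) in the dense libraries, which overlapped at the edge, and changed by -0.83 ± 0.26 (adjusted p = 0.0332). Both calls were lost when any of 3 zone means was left out: either light mean or the dense mean of gradient 1 (adjusted p 0.0518 to 0.0639 for Snrpg and 0.0740 to 0.168 for Snrpe), and that of Snrpe also after quantile normalization (adjusted p = 0.0504). Snrpf changed by -0.18 ± 0.28 (adjusted p = 0.591) and rose from light to middle by 1.45 ± 0.28 (adjusted p = 0.00870), a call that was lost without the light mean of gradient 1 (adjusted p = 0.0678).

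Within the ring, pairs of profiles ran from close to opposed. Snrpf and Snrpg correlated with R = 0.931 and 0.956, and Snrpe and Snrpg with 0.859 and 0.914 in gradients 1 and 2. Snrpb and Snrpd3 correlated with 0.495 and 0.405, Snrpd3 and Snrpe with 0.0472 and 0.173, and Snrpb and Snrpe with -0.649 and -0.621. The change of Snrpb from light to dense exceeded that of Snrpe by 4.50 in gradient 1 and 3.79 in gradient 2. The median of the 28 pairwise R within the ring was 0.208 and 0.281, lower than that of the 36 pairs of the SF3A and SF3B RNAs (0.871 and 0.916) and near that of all 1540 pairs of members (0.230 and 0.228) in the same gradients.

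**Figure D2:**
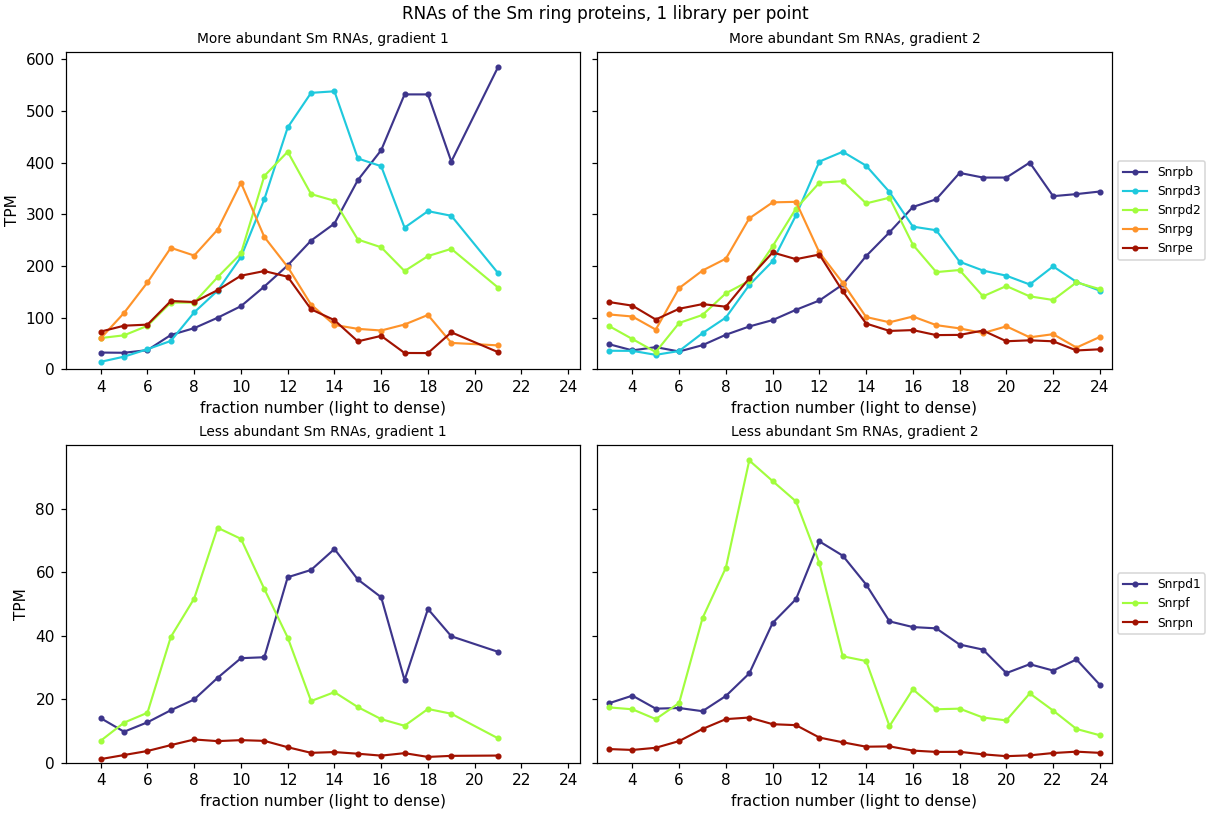
TPM of the 8 Sm RNAs by fraction, gradient 1 on the left and gradient 2 on the right, with the more abundant RNAs above and the less abundant below. Each point is 1 library. Snrpb climbs to 585 and 400 TPM in fraction 21, the 3 Snrpd RNAs peak at fractions 12 to 14, and Snrpe, Snrpf and Snrpg peak at fractions 9 to 11.

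Snrpn was the lowest of the Sm RNAs, with means of 3.88 and 6.93 TPM, and peaked at fractions 8 and 9, unlike Snrpb (R between them -0.497 and -0.663). Its change from light to dense was -0.49 ± 0.40 (adjusted p = 0.323). Of the 31-base words of its transcripts, 8.75% occur in RefSeq-linked transcripts of other genes, among them Snurf, with which it shares exons, and Snrpb; for every other member this share was at most 1.49%. The value of Snrpn is therefore uncertain, since reads of these transcripts could be divided between the genes. Exons of Lsm3, Snrpa1 and Sf3b3 also overlap on the same strand those of other annotated genes (AC161456.1 for Lsm3, Gm45213 for Snrpa1, and Gm22193 and Snord111 for Sf3b3), so reads from the overlap could belong to either gene.

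The 4 RNAs for proteins specific to the U1 and U2 snRNPs all rose from light to dense (22.3% of all genes did), with a median change of 1.73. The U1 snRNP recognises the start of an intron and the U2 snRNP its branch point. Snrpc, for the U1-C protein, had 18.6 to 34.5 TPM (median 20.9) in the light, 52.9 to 127 (median 93.6) in the middle and 92.7 to 156 (median 140) in the dense libraries. Light libraries were lowest, with no overlap, and the peaks were at fractions 14 and 15 (160 and 164 TPM). Its change was 2.46 ± 0.18 (adjusted p = 3.53e-04).

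Snrpa, for the U1-A protein, rose by 2.25 ± 0.27 (adjusted p = 0.00118) to peaks of 202 TPM in fraction 21 and 116 TPM in fraction 20. Snrpb2, for the U2-B'' protein, which is similar in sequence to U1-A, went from a mean of 17.8 to 42.1 TPM in gradient 1 and from 16.4 to 25.6 TPM in gradient 2. The smaller rise in gradient 2 left a change of 0.90 ± 0.26 (adjusted p = 0.0273), which was lost without either light mean or the dense mean of gradient 1 (adjusted p 0.0799 to 0.134). Snrpa1, for the U2-A' protein that partners U2-B'', rose by 1.21 ± 0.18 (adjusted p = 0.00222), and its change from light to middle was already 1.32 ± 0.18 (adjusted p = 0.00301).

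All 9 RNAs for SF3A and SF3B, the U2 snRNP subcomplexes that hold the branch point, rose from light to dense, by 1.00 to 2.57 (median 1.94). Of all genes tested, 22.3% rose and 39.6% fell. Sf3b2 had the highest mean TPM of them (132 and 115). Its libraries had 26.3 to 88.2 TPM (median 43.6) in the light, 97.9 to 154 (median 123) in the middle and 152 to 201 (median 175) in the dense zone. Light libraries lay below all others and middle and dense ones met only at the border, with a change of 1.94 ± 0.18 from light to dense (adjusted p = 5.92e-04).

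Sf3a3 had the largest rise of the group. Its zone means were 9.11, 34.3 and 70.9 TPM in gradient 1 and 8.25, 24.9 and 42.8 TPM in gradient 2, in the order light, middle, dense. Every step went up in both gradients, and the change from light to dense was 2.57 ± 0.29 (adjusted p = 9.98e-04). Sf3b1, which encodes the large scaffold of SF3B that is often mutated in blood cancers, rose by 1.49 ± 0.16 (adjusted p = 7.74e-04) from 20.7 to 29.5 TPM in the light to 71.1 to 87.0 TPM in the dense libraries.

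The 2 shortest RNAs of SF3B by coding length had a different shape. Sf3b5 peaked at fraction 11 in both gradients (190 and 138 TPM) and Sf3b6, whose protein contacts the branch point, at fraction 13 in both (145 TPM each). Both rose from light to middle, by 2.13 ± 0.18 (adjusted p = 0.00120) and 2.66 ± 0.19 (adjusted p = 0.00114). Their changes from middle to dense were -1.12 ± 0.18 (adjusted p = 0.00992) and -0.70 ± 0.19 (adjusted p = 0.0436), but the call of Sf3b6 was lost in 5 of the 6 fits without 1 zone mean (adjusted p 0.0700 to 0.184), after quantile normalization (adjusted p = 0.180) and without the 50 most abundant genes (adjusted p = 0.0551), and that of Sf3b5 without either middle mean (adjusted p 0.0762 and 0.0606). The other 7 RNAs of the group peaked at fraction 16 or beyond in both gradients. In gradient 2 these 7 were higher in the last fractions, 22 to 24, than in the dense zone, most of all Sf3a2, with a mean of 60.3 TPM against 30.7.

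The calls of Sf3a1, Sf3a2 and Sf3b4, which changed by 1.09, 2.01 and 2.10, each depended on a light mean: without that of gradient 2 the adjusted p were 0.0945, 0.0726 and 0.0529, and without that of gradient 1 that of Sf3a1 was 0.0584. The other 6 calls of the group stayed whichever zone mean was left out.

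**Figure D3:**
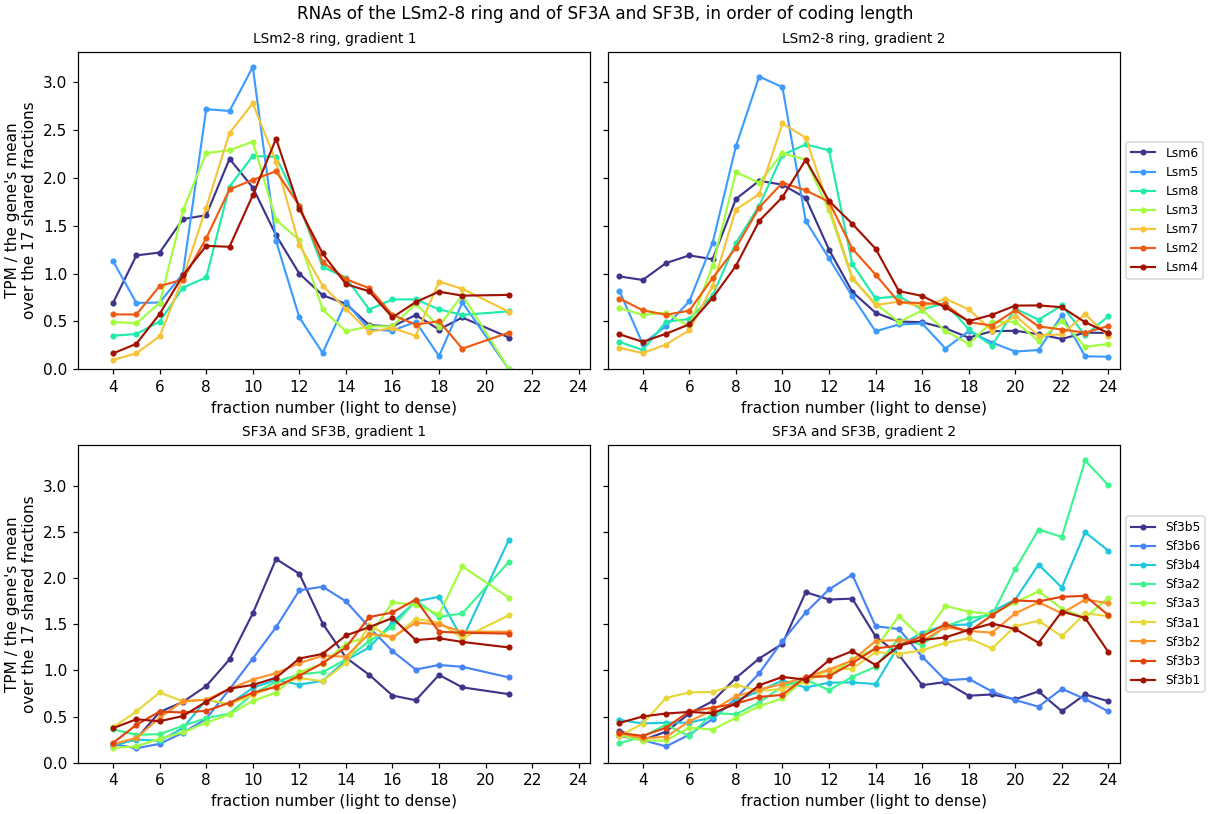
Profiles of the 7 LSm2-8 RNAs (top) and the 9 SF3A and SF3B RNAs (bottom) in gradient 1 (left) and gradient 2 (right), as TPM divided by the gene's mean over the 17 shared fractions, with genes listed by coding length. Each point is 1 library. All LSm2-8 RNAs peak at fractions 9 to 11, Sf3b5 and Sf3b6 peak at fractions 11 and 13, and the other 7 RNAs rise to fraction 16 or beyond.

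The 3 RNAs of U2AF, the factor that marks the end of an intron for U2, rose from light to dense, beside 22.3% of all genes. U2af1 had the highest mean TPM (135 and 123), with 34.5 to 82.5 TPM (median 56.2) in the light and 140 to 200 (median 165) in the dense libraries, which did not overlap. The change was 1.58 ± 0.19 (adjusted p = 0.00125). U2af2, its partner in the heterodimer, rose by 1.93 ± 0.25 (adjusted p = 0.00137), and the profiles of the 2 RNAs correlated with R = 0.937 and 0.940.

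U2af1l4, similar in sequence to U2af1, changed by 0.82 ± 0.22 (adjusted p = 0.0214), by 1.17 in gradient 1 but 0.47 in gradient 2. Its light libraries (4.03 to 39.3 TPM) overlapped the dense ones (22.8 to 46.6 TPM), and the call was lost without the dense or the light mean of gradient 1 (adjusted p 0.0786 and 0.110). Its exons overlap on the same strand those of a predicted gene, Gm49396, which makes its value uncertain.

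The LSm2-8 ring sits on the U6 snRNA, and all 7 of its RNAs peaked in fractions 9 to 11 in both gradients, near the median peak of all genes tested (fraction 9 in both). Over its 21 pairs the lowest R was 0.459, the median 0.801 and the highest 0.931 in gradient 1, while gradient 2 had pairs between 0.620 and 0.968. From light to middle 5 of the 7 rose, beside 23.5% of all genes, and none fell, with a median change over the 7 of 1.24; the call of Lsm3 was lost in 3 of the 6 fits without 1 zone mean (adjusted p 0.0837 to 0.0964) and with zones of 3 fractions (adjusted p = 0.0820). From middle to dense 6 had a called fall, beside 22.5% of all genes, with a median over the 7 of -1.50, and all 6 calls were lost without either middle mean (adjusted p 0.0573 to 0.0737). From light to dense 2 rose (Lsm7 and Lsm4), 1 fell (Lsm6) and 4 were not called, beside 22.3% of all genes that rose and 39.6% that fell.

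Lsm7 had the highest mean TPM of the ring (64.1 and 66.3) and the largest rise. Its libraries had 6.29 to 61.2 TPM (median 19.6) in the light, 56.0 to 178 (median 126) in the middle and 22.4 to 58.8 (median 42.4) in the dense zone. The dense libraries overlapped both other zones, and the peak was fraction 10 in both gradients, with 178 and 170 TPM. The change was 2.38 ± 0.20 from light to middle (adjusted p = 0.00120), -1.51 ± 0.20 from middle to dense (adjusted p = 0.00719) and 0.88 ± 0.20 from light to dense (adjusted p = 0.0103), of which the last was lost without the light mean of gradient 1 (adjusted p = 0.0566) and that from middle to dense without either middle mean (adjusted p 0.0573 and 0.0614).

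Lsm6 had the only called fall of the ring from light to dense. Its zone means were 18.0, 19.5 and 7.60 TPM in gradient 1 and 20.9, 27.6 and 7.87 TPM in gradient 2. The dense zone was lowest in both, with no overlap of its libraries with the light ones, and the change was -1.21 ± 0.23 (adjusted p = 0.00615), with an adjusted p of 0.0549 without the light mean of gradient 2. Lsm4 changed by 0.60 ± 0.17 (adjusted p = 0.0246), a call lost in 5 of the 6 fits that left out 1 zone mean (adjusted p 0.0680 to 0.113).

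Lsm2, Lsm3, Lsm5 and Lsm8 were not called, with changes of -0.50, -0.42, -0.88 and 0.21 from light to dense. Lsm5 was the least even between the gradients, with a change from light to middle of -0.03 in gradient 1 and 1.21 in gradient 2. Lsm5 and Lsm3 were each at 0 TPM in 1 library of gradient 1, fraction 21.

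Of the 6 other LSm RNAs, Lsm12, Lsm14a and Lsm11 peaked in fractions 4 to 6 of both gradients, and Lsm1, Lsm10 and Lsm14b in fractions 8 to 10. Among their proteins, LSM1 takes the place of LSM8 in a cytoplasmic ring that takes part in mRNA decay, LSM10 and LSM11 belong to the U7 snRNP that trims histone mRNAs, and LSM14A and LSM14B are proteins of P-bodies and stored mRNA. From light to dense 4 fell (Lsm12, Lsm1, Lsm14b and Lsm14a), none rose, and Lsm10 and Lsm11 were not called (-0.84 and -0.95). Of all genes 39.6% fell, and the median was -1.01 for these 6 and -0.43 for all genes.

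Lsm12 had the highest mean TPM of these (62.7 and 66.0) and the largest fall of all 56 members. Its TPM was 88.3 to 160 (median 112) in the light, 31.9 to 91.6 (median 56.3) in the middle and 12.6 to 23.0 (median 17.3) in the dense libraries. The dense libraries lay below all others, and the peak was at fraction 5 in both gradients (160 and 141 TPM). Its change was -2.66 ± 0.15 (adjusted p = 3.01e-04), close to equal in the gradients (-2.72 and -2.60), and it was the only member that fell from light to middle (-1.03 ± 0.15, adjusted p = 0.00402). The gene lies at chr11:102162497-102185296 on the minus strand of GRCm38.

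Lsm1 and Lsm8, which encode the proteins that distinguish the cytoplasmic from the nuclear LSm ring, differed in their changes. Lsm1 fell by 1.60 on the log2 scale from light to dense (SE 0.23, adjusted p = 0.00201), while Lsm8 changed by 0.21 ± 0.21 (adjusted p = 0.418), and by 0.65 with a call after quantile normalization (adjusted p = 0.0389). The change of Lsm1 minus that of Lsm8 was -2.12 in gradient 1 and -1.50 in gradient 2, and their profiles correlated with R = 0.312 and 0.548. The difference between the 2 genes was not tested.

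Of the similar pair Lsm14a and Lsm14b, Lsm14b had zone means of 47.6, 55.8 and 23.0 TPM in gradient 1 and 47.3, 56.2 and 20.2 TPM in gradient 2, and changed by -1.08 ± 0.16 (adjusted p = 0.00220). Lsm14a had zone means of 49.3, 40.5 and 34.0 TPM and of 46.9, 31.4 and 23.6 TPM, with peaks at fractions 4 and 5. Its fall of -0.71 ± 0.24 (adjusted p = 0.0414) was lost in 5 of the 6 fits without 1 zone mean (adjusted p 0.0553 to 0.163).

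**Figure D4:**
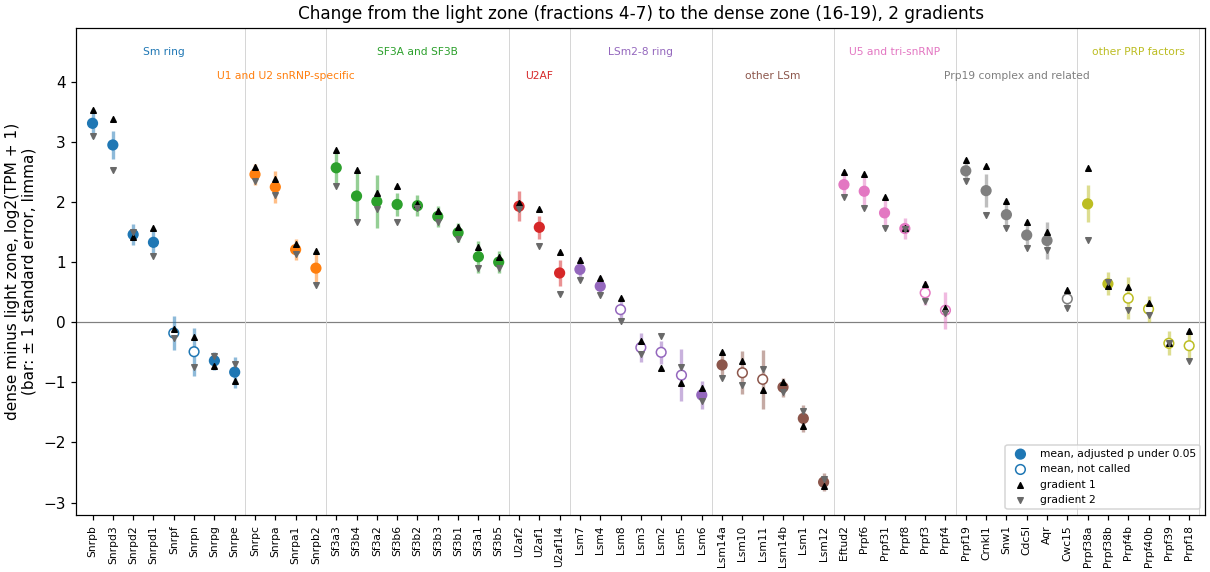
Dense minus light zone on the log2(TPM + 1) scale for 55 of the 56 members, grouped by role. Circles are the limma estimate over 2 gradients, filled where adjusted p was under 0.05, bars are 1 standard error to each side, and small triangles are the change in each gradient. All SF3A, SF3B, U2AF and U1 and U2 snRNP-specific RNAs are filled and above 0, the other LSm RNAs are all below 0, and the Sm ring spans from 3.31 to -0.83.

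Of the 6 RNAs of the U5 snRNP and the U4/U6.U5 tri-snRNP, 4 rose from light to dense, beside 22.3% of all genes, and none fell, beside 39.6%. Prpf8, which encodes the large protein at the catalytic center, had the highest mean TPM (160 and 140). Its libraries had 48.3 to 109 TPM (median 65.9) in the light, 118 to 178 (median 145) in the middle and 173 to 231 (median 202) in the dense zone. Light libraries lay below all others, and the change was 1.56 ± 0.18 (adjusted p = 0.00109). In gradient 2 the level still climbed past the dense zone, from 202 TPM in fraction 19 to 328 in fraction 24.

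Eftud2, for the U5 GTPase that sits against PRPF8, had the largest rise of this group. Its zone means were 9.73, 32.8 and 55.4 TPM in gradient 1 and 10.7, 30.0 and 46.8 TPM in gradient 2, and it changed by 2.29 ± 0.18 (adjusted p = 3.99e-04). The profiles of Prpf8 and Eftud2 correlated with R = 0.978 and 0.971, near the highest of any pair of members (0.991 and 0.990). Prpf6 and Prpf31, which link U5 to U4/U6, rose by 2.18 ± 0.29 (adjusted p = 0.00161) and 1.82 ± 0.22 (adjusted p = 0.00121).

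Prpf3 and Prpf4, whose proteins bind U4/U6, were not called. Prpf3 changed by 0.49 ± 0.20 (adjusted p = 0.0796), but by 0.92 with a call after quantile normalization (adjusted p = 0.00864), and Prpf4 by 0.20 ± 0.31 (adjusted p = 0.598). Their means were under 10 TPM in both gradients, and Prpf3 changed from light to middle by 0.02 in gradient 1 and by -0.36 in gradient 2.

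In the Prp19 complex and its partners, which activate the spliceosome, 5 of 6 RNAs rose from light to dense and none fell, against 22.3% and 39.6% of all genes. Prpf19, the ubiquitin ligase of the complex, had 11.0 to 17.7 TPM (median 13.1) in the light, 27.2 to 53.8 (median 38.9) in the middle and 64.8 to 108 (median 80.8) in the dense libraries. The 3 zones did not overlap, its peak was at fraction 18 in both gradients, and it had the highest R between the gradients of any member (0.993). Its change was 2.52 ± 0.21 (adjusted p = 4.23e-04), the largest rise of the group.

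Crnkl1, Snw1, Cdc5l and Aqr rose by 2.19, 1.79, 1.45 and 1.36. The call of Aqr, the helicase-like protein that binds introns, was lost without the light mean of gradient 2 (adjusted p = 0.0758). Cwc15, with the highest mean TPM of the group (139 and 148), had another shape: its peaks were at fractions 10 and 12 (218 and 243 TPM). It had 47.6 to 125 TPM (median 82.4) in the light, 189 to 243 (median 213) in the middle and 83.2 to 125 (median 113) in the dense libraries, so that the middle zone stood alone and the outer zones overlapped. Its change was 0.39 ± 0.16 from light to dense (adjusted p = 0.0737) and 1.36 ± 0.16 from light to middle (adjusted p = 0.00204).

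The 7 other PRP factors had the lowest median R of profiles between gradients of any group (0.671), with none of them above 0.9. From light to dense all 7 nevertheless changed in the same direction in both gradients. From light to dense 3 of the 7 rose, Prpf38a and Prpf38b among them, and none fell, where 22.3% of all genes rose and 39.6% fell. Prpf40b, with means of 6.39 and 5.22 TPM, changed by 0.22 ± 0.22 (adjusted p = 0.428), and by 0.81 with a call after quantile normalization (adjusted p = 0.0103).

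Prpf38a had the largest rise of these (1.97 ± 0.31, adjusted p = 0.00290) and, for this contrast, the largest gap between the gradients of any member, with 2.57 in gradient 1 and 1.37 in gradient 2. Its zone means were 4.73, 14.8 and 32.3 TPM in gradient 1 and 6.61, 14.6 and 18.8 TPM in gradient 2. The similar Prpf38b changed by 0.64 ± 0.19 (adjusted p = 0.0287), had the lowest R between gradients of all members (0.444), and its call was lost in each of the 6 fits without 1 zone mean (adjusted p 0.0513 to 0.143). Prpf18 and Prpf39 peaked at fraction 5 in both gradients and changed by -0.39 and -0.35, and the kinase gene Prpf4b by 0.40, none of them called.

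From the light to the middle zone 36 members rose, 1 fell and 19 were not called, beside 23.5% of all genes that rose and 24.1% that fell (47.5% called). The median change was 1.09 for the members and 0.05 for all genes. The 8 middle libraries were all above the 8 light ones for 29 members, against 17.6% of all genes, and all below for 0, against 16.1%. The count of calls was 23 without the light mean of gradient 1. The largest rises were those of Snrpd3 (3.29), Sf3b6 (2.66), Lsm7 (2.38), and Snrpd2 and Sf3b5 (2.13 each).

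From the middle to the dense zone 7 members rose, 17 fell and 32 were not called, beside 4.79% and 22.5% of all genes (27.3% called), and the medians were -0.07 for the members and -0.28 for all genes. Those that rose were Snrpb, Snrpa, Prpf19, Cdc5l, Snw1, Sf3b3 and Eftud2, and those that fell were 6 of the LSm2-8 ring, Snrpd2, Snrpe, Snrpf and Snrpg, 4 other LSm RNAs, Sf3b5, Sf3b6 and Cwc15. All 8 dense libraries were above all middle ones for 8 members (5.45% of all genes) and below for 10 (19.3% of all genes). The number of these calls depended on the fit. With the gradient as a block, which the shared homogenate of the zones allows, 43 were called (23 higher, 20 lower), beside 53.4% of all genes. Without either middle mean limma called 0 members and 0 of all 11754 genes, with 31 members (without that of gradient 1) or 21 (without that of gradient 2) at an unadjusted p under 0.05. Without the light mean of gradient 1 or 2 the count was 15 or 14. The split also moved with the scaling, to 18 higher and 14 lower after quantile normalization, which set the median of all genes at 0.03, and to 13 higher and 15 lower without the 50 most abundant genes; the median of the members was 0.27 and 0.04 under these scalings.

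With the gradient as a block, 9 members that were not called from light to dense passed the threshold: Cwc15, Prpf3 and Prpf4b higher (adjusted p 0.0262, 0.0206 and 0.0353), and Lsm2, Lsm5, Lsm10, Lsm11, Prpf39 and Snrpn lower (adjusted p 0.0311, 0.0434, 0.00256, 0.00244, 0.0317 and 0.0354). From light to middle the block added Cdc5l, Lsm10, Prpf40b, Prpf4b, Sf3a1, Sf3a2 and Snrpn as higher and Lsm14a and Prpf39 as lower. Background shares rise with it, to 80.6% of all genes from light to dense, 72.1% from light to middle and 53.4% from middle to dense.

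Past the dense zone, fractions 22 to 24 were sequenced only in gradient 2, without a replicate. Their mean was above that of the dense zone for 20 of 56 members (35.7%), close to the share of all genes (35.8%). By group it was above for 7 of 9 SF3A and SF3B, 4 of 6 U5 and tri-snRNP and 4 of 6 Prp19 complex RNAs, but for 0 of 8 Sm RNAs and 1 of 7 LSm2-8 RNAs. The largest means there were those of Snrpb (339 TPM), Prpf8 (302 TPM) and Sf3b2 (197 TPM).

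Position in the gradient also went with the length of the protein. The centre of sedimentation of the 56 members correlated with log2 of the coding length with Pearson's R = 0.498 and 0.503 and Spearman's rho = 0.493 and 0.515 in gradients 1 and 2, across genes that are not independent replicates, while for the 10807 tested genes with a coding length R was 0.129 and 0.126. Of 18 members with a coding length under 500 nucleotides, 8 rose and 4 fell from light to dense, of 18 between 500 and 1500, 11 rose and 3 fell, and of 20 over 1500, 15 rose and none fell. For all genes the shares that rose were 18.8%, 24.7% and 23.1% in these classes, and those that fell 46.2%, 39.7% and 34.0%.

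Centres did not follow the order of coding lengths for all members, and the part of length in position was not tested. Snrpb (693 nucleotides) and Snrpc (477) had centres of 15.7 and 14.5 in gradient 1 and of 15.5 and 14.4 in gradient 2, while Prpf8, with the longest coding sequence (7005), had 13.7 and 14.0. Snrpd3 (378 nucleotides) lay above Prpf8 in gradient 1 (14.1) and below it in gradient 2 (13.7). Snrpg (228 nucleotides) and Sf3b5 (258), both among the shortest, had centres of 10.6 and 12.5 in gradient 1 and of 10.9 and 12.6 in gradient 2. Lsm12 (585) and Lsm1 (399) were lower than members of similar length.

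**Figure D5:**
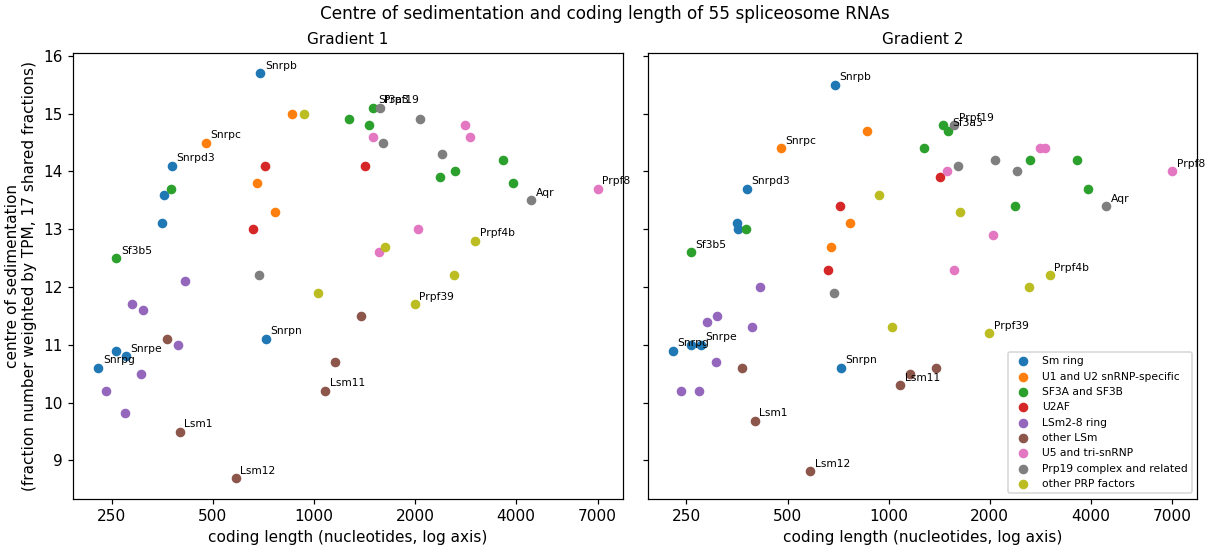
Centre of sedimentation (fraction number weighted by TPM over the 17 shared fractions) against coding length in nucleotides (log axis) for 55 of the 56 members, gradient 1 on the left and gradient 2 on the right. Each point is 1 gene, coloured by role. Lsm12 and Lsm1 lie lowest in both gradients, Snrpb and Snrpc lie above the members nearest to them in length, and short RNAs such as Snrpd1 to Snrpd3 lie beside much longer ones.

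The rest of the pathway was mixed in its changes from light to dense, for which 22.3% of all genes rose and 39.6% fell. Of 31 other snRNP proteins tested, 10 rose and 7 fell (median 0.38). Puf60, for a U2AF-related factor, rose by 3.05 ± 0.24 (adjusted p = 4.08e-04), and Zcrb1, for a protein of the minor U12-type spliceosome, changed by -2.49 ± 0.36 (adjusted p = 0.00216). Of 11 spliceosomal helicases 10 rose and none fell (median 1.47), among them Ddx5 (1.51 ± 0.33, adjusted p = 0.0100) and Ddx39b (2.27 ± 0.18, adjusted p = 3.90e-04).

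Of 33 factors of later splicing steps 18 rose and 2 fell (median 0.96). They include a near-identical pair of equal coding length (1317 nucleotides), Mfap1b, which changed by 3.73 ± 0.20 (adjusted p = 3.01e-04), and Mfap1a, which changed by -0.70 ± 0.24 (adjusted p = 0.0435); since reads of such copies can be divided between them, both values are uncertain. Of 16 genes for the SMN complex and snRNP assembly, which load the Sm ring, 3 rose and 3 fell (median 0.10), so the count that rose was near the share over all genes. Snupn, for the snRNP import adaptor, rose by 1.86 ± 0.19 (adjusted p = 7.39e-04), and Gemin7 changed by -2.33 ± 0.19 (adjusted p = 4.40e-04).

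The few snRNAs measured were divided. Only 5 of 16 listed small nuclear RNAs were in both tables and 4 were tested, of which 3 fell and none rose from light to dense. Of all genes 39.6% fell and 22.3% rose, and 4 snRNAs are too few to set against these shares. Rnu6 changed by -4.83 ± 0.70 (adjusted p = 0.00211) and Rnu12 by -4.21 ± 0.62 (adjusted p = 0.00224), and Rnu11 (adjusted p = 5.59e-04) went from means of 110 and 116 TPM in the light zone to a listed 0 in the dense zone of both gradients. Their highest TPM was in fraction 3 or 4. Rnu7, the snRNA that LSM10 and LSM11 bind, named here after its values were seen, rose from light to middle by 2.82 ± 0.58 (adjusted p = 0.0111), with zone means of 10.4, 52.1 and 11.6 TPM in gradient 1 and 16.9, 44.0 and 15.3 TPM in gradient 2, and was not called from light to dense (-0.40 ± 0.58, adjusted p = 0.576). The nuclear-retained RNAs Malat1 and Neat1 were highest in the light zone as well, with a median sum of 378 TPM against 25.0 in the dense zone, and their part in the snRNA values was not tested.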

How the data were processed

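The authors pseudo-aligned paired reads of stranded, ribosomal RNA-depleted libraries, made from an equal mass of RNA per fraction, to RefSeq transcripts of mm10 with Kallisto and deposited TPM per gene symbol, 1 table per gradient; the submitters' processing notes also name bcl2fastq 2.16.0.10. The version of Kallisto and how transcripts were summed to genes are not given in the sources used here. TPM holds no counts, so depth and counting error are unknown, no count model was used, and precision is known only from the spread between gradients. The number of value columns without a matching sample was 0.

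Zone means of log2(TPM + 1) were compared with limma 3.58.1 (trend in eBayes, R 4.3.3) in 1 fit of 6 zone means, with Benjamini-Hochberg adjustment over all 11754 genes in both tables whose mean TPM over the 24 zone libraries reached 1. The study describes the gradients as biological replicates; the labels do not say whether they come from separate animals, and p-values measure the spread between these gradients. Zones of a gradient share a homogenate; deviations from the zone means correlated across genes between light and middle (r = 0.665), light and dense (r = 0.54) and middle and dense (r = 0.798), so the fit was repeated with the gradient as a block. The limma script was tested on simulated data whose zone means were independent, so that test does not cover the shared homogenate.

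The members, the role lists and the lists of other genes were chosen with earlier results of these data known. In each role group values in the zones are given for the RNA with the highest mean TPM, the largest called rise and fall, similar pairs, and members with opposite signs in the gradients; of other lists, at most the 2 most abundant and the largest rise and fall among called genes. Coding lengths (longest coding sequence without the stop codon) and shared 31-base words are from GENCODE M21 for GRCm38, where 56 of 56 members matched. In all GENCODE transcripts, pseudogenes included, shared words were more common, with 97.3% for U2af1l4, 65.1% for Lsm7, 63.9% for U2af1, 55.0% for Sf3b4, 49.5% for Cdc5l, 46.3% for Lsm5 and 38.0% to 42.8% for U2af2, Snrpe, Snrpc and Snrpa, which makes these values less certain, and whether the authors' index held such transcripts is not given.

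Alternatives were a pseudocount of 0.1, no filter or a mean TPM of at least 10, quantile normalization, TPM rescaled without the 50 most abundant genes, zones from fractions 5, 11 and 17, the block, each fraction as a group, and leaving out each zone mean. Python 3.11.15, NumPy 2.4.6, pandas 2.3.3 and matplotlib 3.10.9 were used. Protein data and isoforms were not analysed here, and the values of 1 member, which stays in the counts, are not reported here.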

Additional observations from a re-analysis of the deposited data

How the results depend on the processing

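From light to dense, the number of members called (41) stayed between 38 and 50 under all alternatives that kept every zone mean and between 30 and 39 when 1 was left out, and the median change (0.95) between 0.79 and 1.15, apart from 1.33 among members whose mean TPM reached 10, and between 0.86 and 1.13 when 1 zone mean was left out. From light to middle the count (37) was 32 to 48, and 23 to 38 when 1 zone mean was left out, the lowest without the light mean of gradient 1. From middle to dense the count (24) was 43 with the gradient as a replicate block and 44 with each fraction as a group, and 0 to 22 when 1 zone mean was left out. The paired fit with this block gave 50 calls from light to dense and 46 from light to middle and lost none of the unblocked calls. The median centre of sedimentation (13.1) was 13.8 over all fractions of each gradient, 12.4 with weights of log2(TPM + 1), 13.3 for members whose mean TPM reached 10, and 13.0 to 13.1 with either gradient alone. The median R between gradients (0.943) was 0.929 on the log scale and 0.898 or 0.856 with the fraction numbers of gradient 2 shifted by 1. No called member changed sign, but from middle to dense the median of the members (-0.07) was 0.27 after quantile normalization and 0.04 without the 50 most abundant genes, and more calls were higher than lower after quantile normalization (18 and 14), with the block (23 and 20) and with each fraction as a group (24 and 20). A zone mean left alone in its zone was assumed to vary like the other zones. With 2 gradients and no read counts, small changes and low RNAs such as Snrpn, Lsm11 and Prpf40b are less certain. So are the sizes of changes with a wide standard error, such as those of Sf3a2 (0.44) and Sf3b4 (0.42) from light to dense.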
